A study of Homo sapiens with 2 samples.

Results

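The interferon-stimulated genes studied here are 48 genes chosen by name as classical targets of interferon, and 47 of them could be read on the arrays, out of 19775 genes in all. RNA came from A549, a cell line established from a human adenocarcinoma of the lung and used as a model of alveolar epithelium. In 1 culture the cells were attached as a monolayer for 12 days, fed DMEM and 10% FBS. In the other they floated as spheroids for 12 days, without serum, in DMEM/F12 containing N2, EGF at 20 ng/ml and bFGF at 10 ng/ml. The cultures thus differed in attachment, serum, medium and growth factors at the same time, and the protocols name no interferon or virus. There was 1 array per culture (Affymetrix Human U133 plus 2.0), so no difference had a replicate check and no test was run. A gene's value was that of the probe set brightest on average (mean log2 signal over both arrays), and the spheroid signal was divided by the monolayer signal. Signals are on the linear, arbitrary scale of the deposited values.

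Interferons are secreted proteins that cells release on sensing foreign nucleic acid. Type I and type III interferons bind their receptors and activate JAK kinases, which phosphorylate STAT proteins that join IRF9 and bind an interferon-stimulated response element (ISRE) in the promoters of target genes. Interferon gamma acts mainly through STAT dimers at gamma-activated sites (GAS). The products of the target genes block viral entry, degrade or sequester viral RNA, stop translation and amplify the signal, and airway and alveolar epithelial cells are well known to mount this response.

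Interferon-stimulated genes leaned towards higher signals in spheroid culture. IFI6, LGALS3BP and IFIT3 were at least 3-fold higher, 12 more genes passed 2-fold on the higher side, and no member was called 2-fold lower. Of these 12, 8 had folds under 3, and MX1, SAMD9, SAMD9L and IFI27 had lower bounds between 2-fold and 3-fold because their monolayer signals lay under the floor described next. The median of each array, 108 in monolayer and 119 in spheroid culture, served as a floor, and values below it were raised to it. Of the 47 measured genes, 31 were above the floor in both cultures, 8 in only 1 culture and 8 in neither. Where only 1 culture was above the floor the fold is a lower bound, written "at least", and no fold is given where neither was.

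Among the 39 members above the floor in at least 1 culture, 3 were at least 3-fold higher, a share of 7.69% beside 2.34% of all 13229 genes above the floor. At least 3-fold lower were 0 members, beside 2.11% of all genes. At 5-fold the counts were 1 higher and 0 lower, beside 0.779% and 0.952% of all genes. At 2-fold, 15 members were higher, or 38.5% beside 6.86% of all genes, and 0 were lower beside 5.5%. A gene that passes the floor only through the culture where it is high had to differ, so the 31 members above both floors were also counted by themselves. Of these 31 genes, 25 had a higher signal in spheroid culture (80.6% beside 51.6% of 11528 genes) and 10 were at least 2-fold higher (32.3% beside 6.22%). At least 2-fold lower were 0 of them, beside 5.28% of all genes. Their median log2 ratio was 0.52, with quartiles at 0.27 and 1.14, beside a median of 0.02 for all genes above both floors. Of the 31 genes, 21 lay above the upper quartile of all genes, a log2 ratio of 0.38, and 0 lay below the lower quartile of -0.34. Without a floor, 36 of the 47 genes had the higher signal in spheroid culture, or 76.6% beside 53.0% of all genes. These shares describe 2 arrays and hold no measure of culture-to-culture spread.

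**Figure D1:**
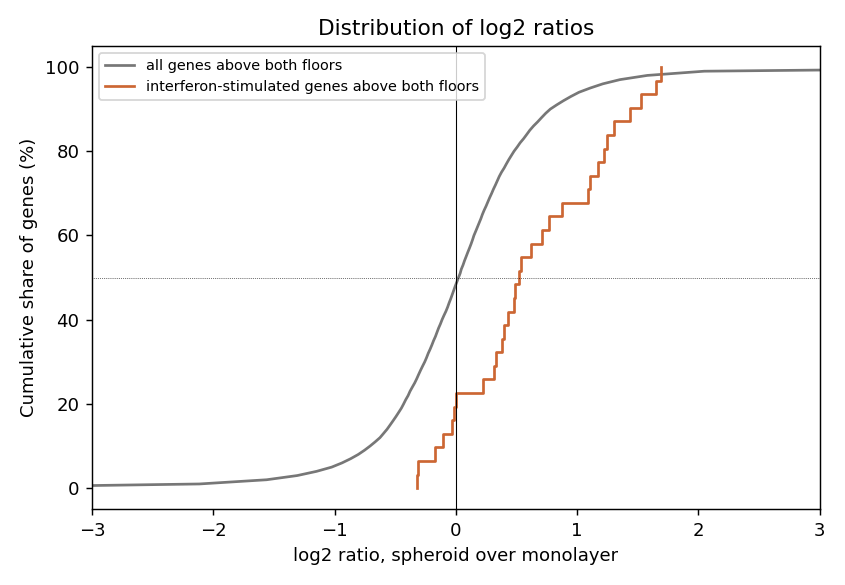
Cumulative share of genes (y axis, %) against the log2 ratio of spheroid over monolayer signal (x axis), for the 31 interferon-stimulated genes above both floors (orange steps) and all 11528 genes above both floors (grey line). The orange curve crosses the 50% line at 0.52 and the grey curve at 0.02, and no interferon-stimulated gene lies below -0.34.

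The yardsticks within these arrays are wide. Log2 ratios of all genes above both floors had a robust SD of 0.53. Where a gene had several probe sets, the brightest and the next brightest gave log2 ratios that differed by an SD of 0.49 (5433 genes). A single log2 ratio of this size, or somewhat above it, cannot be told from disagreement between probe sets. This SD comes from the same 2 arrays and does not measure spread between arrays or cultures. Among genes above both floors, those just inside and just outside 3-fold were IFIT3 at 3.14-fold and IFITM1 at 2.88-fold. At 2-fold they were PARP9 at 2.13-fold and TRIM22 at 1.83-fold.

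**Figure D2:**
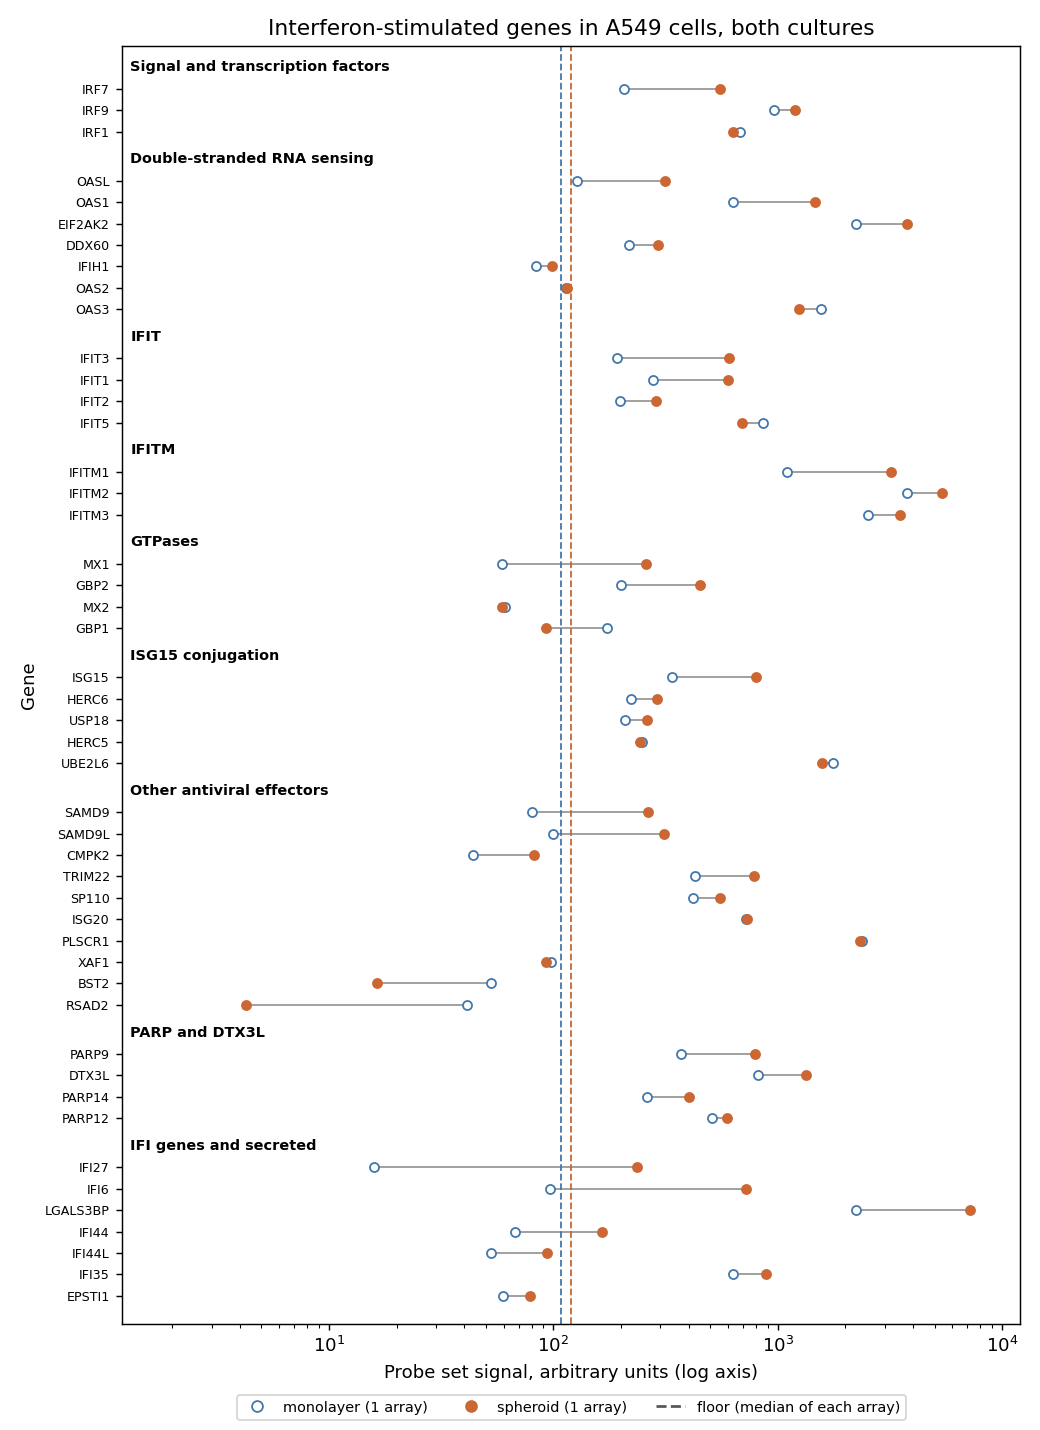
Probe set signal (x axis, arbitrary units, log scale) of each of the 47 interferon-stimulated genes measured, by functional group, with open blue points for the monolayer array, filled orange points for the spheroid array and dashed lines for the floor of each array. Most orange points lie to the right of their blue partners, as for IFI6 (96.8 and 721) and LGALS3BP (2230.4 and 7182), while RSAD2 and BST2 lie to the left with both points under the floors.

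Most of the member promoters that could be searched carry the letters that the activated STAT and IRF9 complex recognises. RefSeq promoter windows of GRCh38.p14, from 250 bases before to 50 bases after a gene's start, were found for 39 of the 48 genes, in 52 windows. The ISRE core, GAAA followed by any 2 bases and GAAA again and searched on both strands, was present in 33 of the 52 windows (63.5%), beside 3.57% of all 35116 windows and 34.8% of 46 windows of further interferon-stimulated genes. By gene, 28 of the 39 members held it, beside 1195 of 27305 genes (4.38%). The longer form, which is the core followed by CT, was in 38.5% of member windows, 10.9% of those of the further genes and 0.273% of all. The GAS pattern TTCNNNGAA, the same on both strands and free to overlap the others, was in 28.8%, 13.0% and 7.66%. Stretches of 7 promoters are shown, written 5′ to 3′ on the strand of the gene. All 7 were picked from windows with a core match, so none shows a promoter without one. Matches to the core that end before the gene's start are in capitals, a match on the other strand reading TTTC, any 2 bases and TTTC. The first 3 belong to the genes at least 3-fold higher, and ISG15 to a gene that was 2.37-fold higher. IFIT5 belongs to a gene whose signal was lower on its brighter probe set only, and IFI44L and BST2 to genes at the floor in both cultures.
IFI6, chr1:27672264-27672360, minus strand: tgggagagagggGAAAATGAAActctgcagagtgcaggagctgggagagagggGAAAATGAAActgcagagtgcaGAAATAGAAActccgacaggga
IFIT3, chr10:89327829-89327896, plus strand: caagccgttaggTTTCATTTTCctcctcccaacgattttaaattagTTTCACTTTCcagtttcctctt
LGALS3BP, chr17:78979960-78979993, minus strand: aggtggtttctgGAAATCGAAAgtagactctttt
ISG15, chr1:1013372-1013411, plus strand: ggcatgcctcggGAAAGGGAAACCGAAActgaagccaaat
IFIT5, chr10:89414511-89414567, plus strand: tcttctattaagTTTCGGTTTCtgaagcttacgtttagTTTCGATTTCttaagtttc
IFI44L, chr1:78620272-78620396, plus strand: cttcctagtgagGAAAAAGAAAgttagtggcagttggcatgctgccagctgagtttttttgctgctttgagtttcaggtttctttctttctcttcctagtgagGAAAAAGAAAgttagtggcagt
BST2, chr19:17405733-17405772, minus strand: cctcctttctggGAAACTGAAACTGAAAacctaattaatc
IFI6 holds 3 separate matches and IFIT3 holds 2, while the matches of ISG15 and of BST2 overlap. The window of IFIT5 also holds 3 matches, of which the 2 that end before the gene's start are marked. The ratios of genes with and without the core overlapped. The 23 members with a core match and above the floor had a median log2 ratio of 0.71, from -0.55 to 2.74. The 11 members with a window but no match included 8 above the floor, which had a median of 0.39, from -0.17 to 1.53. OAS1 and SAMD9L, both at least 2-fold higher in spheroid culture, are among these 8. Members at the floor in both cultures numbered 5 with a match and 2 without. A match is a run of letters and does not show that a factor binds there in A549 cells.

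Among the transcription factors of the pathway, only IRF7 stood at least 2-fold higher in spheroid culture. IRF7, which drives the later wave of interferon alpha genes and is itself an interferon target, read 206 on the monolayer array and 555 on the spheroid array through its only probe set, 2.70-fold higher. IRF9, the DNA-binding partner of the activated STAT proteins, had signals of 958 and 1192. IRF1, a factor of the interferon gamma response, had signals of 678 and 629, and its dimmer probe set went the other way, with 301 and 315. STAT2 was not analysed here.

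Of the 7 genes that sense or act on double-stranded RNA, OASL and OAS1 were at least 2-fold higher, and the neighbouring OAS3 was not. OAS1 makes the 2′-5′ oligoadenylates that activate RNase L, and its signal went from 629 to 1466, 2.33-fold higher. Its other probe set read 743 and 1077, or 1.45-fold, which is under 2-fold. OASL, a relative without that activity, went from 127 to 313, 2.47-fold higher, with both probe sets higher. OAS3, the long form of the enzyme, had signals of 1550.4 and 1242, a log2 ratio of -0.32. OAS2 read 113 in monolayer and 115 in spheroid culture, close to both floors, and no fold is given for it. EIF2AK2, the kinase PKR that stops translation on binding double-stranded RNA, was 1.70-fold higher with signals of 2227 and 3784, although its other 2 probe sets had folds of 1.03 and 0.991. DDX60, a helicase, had signals of 217 and 293. IFIH1, the sensor MDA5, stayed under the floor with signals of 83.4 and 98.8.

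The IFIT proteins bind foreign RNA ends, and their genes lie close together on chromosome 10. IFIT1, IFIT2 and IFIT3 were higher on every probe set, while the probe sets of IFIT5 went opposite ways. IFIT3 read 192 on the monolayer array and 604 on the spheroid array, 3.14-fold higher. Its second probe set was higher by less, 186 against 356, or 1.92-fold. IFIT1 went from 279 to 599, 2.15-fold higher on its only probe set. IFIT2 had signals of 198 and 286, and both of its probe sets were higher. IFIT5 was lower on its brighter probe set (859 and 692) and higher on the other (376 and 451). The call of IFIT3 at 3-fold was lost with the floor at the 75th percentile (log2 ratio 0.34), with quantile normalization (1.57), after division by the array median (1.51), after averaging its probe sets by geometric mean (1.29) and on its second brightest probe set (0.94).

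All 3 IFITM genes, whose products sit in cell membranes and hinder fusion of enveloped viruses, had higher signals in spheroid culture. IFITM1 went from 1105 to 3184, 2.88-fold higher. IFITM2 went from 3762 to 5380.0 and IFITM3 from 2526 to 3511, which are 1.43-fold and 1.39-fold. The probe sets of IFITM2 and IFITM3 have names that end in _x_at, which marks probes that may also bind similar transcripts, so these near-identical neighbours on chromosome 11 are not read fully apart.

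Among the interferon-induced GTPases, MX1 and GBP2 were higher and GBP1 was not. MX1, which traps viral nucleocapsids, read 58.9 in monolayer, below the floor, and 257 in spheroid culture, at least 2.38-fold higher. MX2, its neighbour on chromosome 21, stayed under the floor with signals of 61.0 and 59.3. GBP2, a guanylate-binding protein, went from 200.1 to 449.7, 2.25-fold higher with both probe sets higher, and was under 2-fold on its second probe set (log2 ratio 0.71) and in the geometric mean of both (0.94). GBP1, the adjacent gene on chromosome 1, was the only member with a fold in the other direction in this group, with 174 in monolayer and 93.0 in spheroid culture, at least 1.46-fold lower. This was the only 1 of its 4 probe sets to pass the floor, and 3 of the 4 had higher raw signals in spheroid culture. The geometric mean of its probe sets gave a log2 ratio of -0.03.

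In the ISG15 system, which attaches the ubiquitin-like protein ISG15 to newly made proteins, the modifier was higher and its enzymes were close to even. ISG15 went from 337 to 799.5, 2.37-fold higher on its only probe set. UBE2L6, the conjugating enzyme, had signals of 1769 and 1568, and HERC5, the main ligase, had 247 and 244. HERC6, the relative of HERC5 beside it on chromosome 4, had signals of 221 and 288. USP18, the protease that removes ISG15 and also damps the type I receptor, had signals of 208 and 262.

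Of 10 other antiviral effectors, SAMD9 and SAMD9L were at least 2-fold higher, 4 lay within 2-fold and 4 stayed under the floor. SAMD9L and SAMD9 are adjacent restriction factors on chromosome 7 that act against poxviruses. SAMD9L read 99.8 in monolayer and 312 in spheroid culture, at least 2.89-fold higher, and SAMD9 read 80.2 and 264, at least 2.44-fold higher. In both genes the monolayer signal lay under the floor and 1 probe set passed it, and the geometric mean of the probe sets gave log2 ratios of 0.60 for SAMD9L and 0.71 for SAMD9. TRIM22, a ubiquitin ligase, went from 426 to 779. PLSCR1, a phospholipid scramblase, had 2382 and 2328, and the RNA exonuclease gene ISG20 had 724 and 726 on its brighter probe set and 637 and 491 on the other. SP110, a nuclear body protein, was 1.32-fold higher, and 4 of its 5 probe sets were higher while 1 was lower by a log2 ratio of -0.04. RSAD2 (viperin), CMPK2, BST2 (tetherin) and XAF1, all well-known targets of interferon, stayed under the floor in both cultures. RSAD2 read 41.2 and 4.26 and the adjacent CMPK2 read 43.7 and 81.9. BST2 read 52.5 and 16.4, and XAF1 read 97.9 and 92.6. None of these signals is ranked, since all lay under the floor.

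The PARP genes and DTX3L, which form an ADP-ribosylation and ubiquitin ligase module, all had higher signals in spheroid culture, 1 of them at least 2-fold. PARP9, the partner of DTX3L, went from 371 to 789.6, 2.13-fold higher, but its second probe set read 196 and 228. DTX3L went from 817 to 1334, 1.63-fold higher, and PARP14 from 262 to 403, 1.54-fold higher. These 3 genes lie close together on chromosome 3, with DTX3L directly beside PARP9. PARP12, on another chromosome, had signals of 511 and 596.

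Among the IFI genes and the other members of their group, IFI6, LGALS3BP and IFI27 passed 2-fold. IFI6, a mitochondrial and endoplasmic reticulum protein that protects against apoptosis and flavivirus replication, read 96.8 on the monolayer array and 721 on the spheroid array through its only probe set, and was at least 6.66-fold higher. IFI27, a related small membrane protein, read 15.9 and 236, at least 2.18-fold higher. LGALS3BP, a secreted galectin-binding glycoprotein, went from 2230.4 to 7182 through its only probe set, 3.22-fold higher. LGALS3BP is also on the study's own list of genes upregulated on these same arrays, so its direction is not independent evidence. Without it, the median log2 ratio of the members above the floor was 0.57 in place of 0.61. IFI44 read 67.6 and 165, at least 1.53-fold higher, while IFI44L, its neighbour on chromosome 1, stayed under the floor with 52.6 and 93.4. EPSTI1 also stayed under the floor, with 59.3 and 78.5, and IFI35 went from 631 to 884. The call of IFI6 at 3-fold was lost with the floor at the 75th percentile (log2 ratio 0.59), and that of LGALS3BP after division by the array median (1.55).

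Over all members, 82 probe sets carried 1 of the 47 genes alone and 55 of them passed the floor, 43 higher and 11 lower in spheroid culture. For 12 genes more than 1 probe set passed. In 6 of these all were higher, in 1 (PLSCR1) all were lower, and in 5 (EIF2AK2, IFIT5, IRF1, ISG20 and SP110) they went both ways. By position, 25 of the 48 members lie beside another member with at most 4 coding genes between, in 15 neighbouring pairs. Within some pairs 1 gene was higher and the other lower on the probe set used, as in OAS1 and OAS3, and GBP2 and GBP1. The lower side is small beside the SD of 0.49 between probe sets. OAS3 had a log2 ratio of -0.32, and GBP1 one of -0.55, or -0.03 by geometric mean of its probe sets. MX2 and IFI44L, the neighbours of MX1 and IFI44, stayed under the floor in both cultures and have no direction. In the pairs of IFITM1 with IFITM2, PARP9 with DTX3L, and SAMD9 with SAMD9L, both were higher.

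Genes that make or receive the interferon signal were mostly under the floor or within 2-fold. Of 18 interferon genes measured, 17 stayed under the floor in both cultures, among them IFNB1, a type I interferon, with 4.11 and 25.9, and IFNL1, a type III interferon, with 31.0 and 78.4. IFNE, a type I interferon known from the epithelium of the reproductive tract, was the exception with signals of 155 and 470.1, 3.03-fold higher on its only probe set, and this dropped under 3-fold with quantile normalization (log2 ratio 1.52) and after division by the array median (1.46). Of 10 receptor, JAK and STAT genes, 2 were at least 2-fold higher and 0 lower, with a median log2 ratio of 0.21. These were IFNLR1, the specific chain of the type III receptor (127 and 279), and the kinase JAK2 (309 and 637, with all 3 probe sets higher). JAK1, a kinase used by all interferon receptors, had signals of 3798 and 2481, a log2 ratio of -0.61, and all 3 of its probe sets that passed the floor were lower. IFNAR1, a chain of the type I receptor, had signals of 349.8 and 580.3 and 3 of its 4 probe sets were higher. IFNAR2, the other chain, had signals of 1059 and 534, a log2 ratio of -0.99, but its 2 other probe sets were higher.

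Upstream sensing and negative regulation went both ways. RIGI, the sensor of viral RNA ends and itself an interferon target, had signals of 487 and 1174, 2.41-fold higher, and its 2 dimmer probe sets were 4.67-fold and 5.33-fold higher. TICAM1, the adaptor of TLR3, was at least 2.18-fold lower, with 260.4 and 91.8. These were the only 2 of 14 sensing genes past 2-fold, 3 were at the floor, and the median log2 ratio was 0.14. The shares past 2-fold among all genes above the floor were 6.86% higher and 5.5% lower. SOCS3, a feedback inhibitor of JAK signalling, was 3.09-fold lower, with 671 in monolayer and 217 in spheroid culture. It was the only 1 of 9 negative regulators, a list that also holds the member USP18, past 2-fold, and its second probe set read 175 and 148, a log2 ratio of -0.24. Its call was lost with the floor at the 75th percentile (-0.45) and when its probe sets were averaged by geometric mean (-0.60).

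Interferon-stimulated genes outside the 48 had a lower median ratio, a difference that was not tested. Of 45 further such genes measured, 39 passed the floor, with 1 past 3-fold and 4 past 2-fold on the higher side, none past 3-fold and 1 past 2-fold on the lower side, and a median log2 ratio of 0.27. TMEM140, a membrane protein, read 107 and 640.4, at least 5.92-fold higher, which was 0.42 on the log2 scale with the floor at the 75th percentile. NMI, which binds STAT proteins, went from 611 to 1825, 2.99-fold higher, and IFI16, a DNA sensor, from 251 to 579.7, 2.31-fold higher with all 3 probe sets higher. TRIM14, a signalling adaptor, was 2.04-fold lower with signals of 849 and 417. Of 10 genes typical of interferon gamma, a list that shares IRF1 with the members, 4 were at the floor and the median log2 ratio was 0.33. NLRC5, the activator of class I antigen genes, read 13.0 and 279, at least 2.58-fold higher, and was the only 1 of them past 2-fold. CXCL10, a chemokine, had signals of 122 and 150.3.

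The nearest other gene groups were set beside the members. Of 16 genes of class I antigen presentation, which interferons also induce and which include NLRC5 and B2M of the lists above, 2 passed 2-fold on the higher side and 1 on the lower side, and the median log2 ratio was 0.28. HLA-C, a class I heavy chain, went from 4201 to 8411, 2.00-fold higher, while its other 3 probe sets were 1.18-fold, 1.69-fold and 1.23-fold higher. PSMB9, an immunoproteasome subunit, went from 598 to 252, 2.37-fold lower. This median turned to -0.34 without the _s_at and _x_at probe sets. Of 19 inflammatory chemokines and interleukins, 2 passed 2-fold on the higher side and 3 on the lower side, and the median was -0.20. The cytokine genes IL1B (285 and 769) and IL11 (291 and 676) were 2.70-fold and 2.32-fold higher. The second probe set of IL1B read 181 and 730, or 4.04-fold, and that of IL11 read 209 and 215, or 1.03-fold. IL1B is also on the study's own list of upregulated genes from these same arrays. CCL20 (2627 and 855), CCL5 (301 and 102) and IL6 (491 and 218), targets of inflammatory signalling, were 3.07-fold, at least 2.52-fold and 2.25-fold lower. The sign of this median was positive with no floor (0.19), with the floor at the 25th percentile (0.09) and with that at the 75th percentile (0.00083). With 1 array per culture, differences between these lists were not tested.

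**Figure D3:**
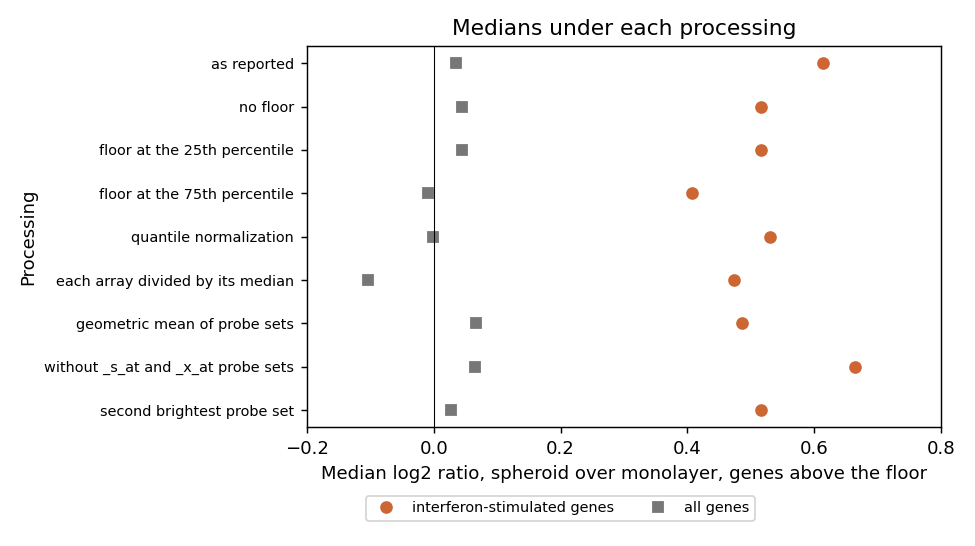
Median log2 ratio (x axis) of the interferon-stimulated genes (orange circles) and of all genes (grey squares) above the floor under each processing (y axis). The member median runs from 0.41 to 0.66 and lies to the right of the median of all genes in every row.

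Markers fixed for the cell type were read on the same arrays. Of 13 measured markers of A549 cells all 13 were above both floors. AKR1B10 (54097 and 69583) was the brightest on both arrays, and KRT18 read 50068 and 39147. Past 2-fold were 2 of them, GPX2 (5519 and 31509) and KRT19 (191 and 889), both higher in spheroid culture, and 11 lay within 2-fold. EPCAM was dimmer, with 213 and 302. Of 10 leukocyte markers 6 were at the floor in both cultures, among them PTPRC, 3 of the other 4 were lower in spheroid culture, and their summed signal was 1297 on the monolayer array and 921 on the spheroid array. Of 9 stromal and endothelial markers 6 were at the floor, with sums of 1542 and 1467. A hepatoma line is named in the submitters' free description of either sample, so liver and hepatoma markers were read too. In this list of 10 genes 5 passed 2-fold on the higher side and 0 on the lower side, and their sum went from 2423 to 15445. APOH had the highest spheroid signal of the list, with 919 and 8136, and was 8.85-fold higher. ALB, which encodes albumin, read 23.4 and 4639, at least 42.9-fold higher. AFP, alpha-fetoprotein, read 106 and 263, at least 2.43-fold higher, whereas TTR and GPC3 stayed under the floor. The part of these markers in the values of the interferon-stimulated genes was not tested. In RNA of a whole culture, a change in the number of cells that express a gene and a change in its RNA per cell cannot be told apart.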

How the data were processed

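RNA of A549 monolayer and spheroid cells was hybridised to Affymetrix Human U133 plus 2.0 arrays, 1 per culture. Samples were mapped by title, and a free description that names a hepatoma line and a compound was not used. The signal intensity values deposited by the authors are linear, and the submitters' notes name MAS5 and GCOS. Trimmed of 2% at either end, the mean was 499.9 on both arrays, which marks a common scaling, and no further scaling was applied. Precision is limited by the number of arrays.

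Of 54675 probe sets, 41097 carried 1 gene in the platform annotation, 1801 several and 11777 none. For 41043 of the 41097 probe sets with 1 gene, the Entrez identifier was found in the current gene list, which gave the symbol. Only the first kind was used. The probe set of highest mean log2 signal stood for its gene, and the floor was the median of an array without its 62 control probe sets. STAT2 and a few genes of the other lists were not analysed here.

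The members were given by name, and members and lists were chosen with earlier results of these data known. With 1 array per culture no p-value was computed. Genes were counted at 3-fold and 2-fold, with 5-fold as an alternative. Named genes are members past 2-fold, the highest and lowest of each functional group, those with discordant probe sets, the signal's factors and receptors, and up to 3 genes per direction past 2-fold of each other list. Settings tried were no floor, floors at the 25th and 75th percentile, quantile normalization, division by the array median, the geometric mean of probe sets, the second brightest probe set, and no probe sets ending in _s_at or _x_at. The steps were run on simulated arrays with less noise than these data and with folds above those of most members. That run checks the code and not the calls made here. Python 3.11.15 was used with pandas 2.3.3, numpy 2.4.6 and matplotlib 3.10.9.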

Additional observations from a re-analysis of the deposited data

How the results depend on the processing

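The median log2 ratio of the members above the floor was 0.61 as reported. It was 0.52 with no floor, a 25th percentile floor or the second brightest probe set, 0.41 with a 75th percentile floor, 0.53 with quantile normalization, 0.47 after division by the array median and 0.49 with the geometric mean of probe sets. Less the median of all genes, it lay between 0.42 and 0.60 over all settings. Dividing by the median moved the median of all genes from 0.036 to -0.10, and the genes at least 3-fold higher and lower from 309 and 279 to 249 and 344. Of 39 members, 3 were at least 3-fold higher as reported, beside 309 of 13229 genes. These became 7 of 47 with no floor, beside 1312 of 19775, and 7 of 47 with a 25th percentile floor, beside 558 of 17489. With a 75th percentile floor they were 1 of 24, beside 109 of 8535. With division by the median they were 1 of 39, beside 249 of 13229. In the reported setting they were 15 at a limit of 2-fold and 1 at 5-fold. Members at least 3-fold lower numbered 2 of 47 with no floor, beside 1014 of 19775 genes. These 2 members are RSAD2 and BST2, both under the floor in the reported setting. The 15 members at least 2-fold higher became 3 of 24 with a 75th percentile floor, beside 401 of 8535 genes. With the second brightest probe set they were 9 of 31, beside 732 of 11152 genes. The 31 members higher by any amount became 19 of 24 with the 75th percentile floor. They were 20 of 26 without _s_at and _x_at probe sets, where fewer members were left.

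Among the other lists, the median for further interferon-stimulated genes was 0.13 with division by the median, and the 75th percentile floor gave 0.040 for negative regulators and -0.11 for interferon gamma-type genes. For class I presentation it was 0.42 with that floor, 0.14 with division by the median and -0.34 without _s_at and _x_at probe sets. For chemokines and interleukins it was 0.19 with no floor, 0.092 and 0.00083 at the 25th and 75th percentile floors, -0.34 with division by the median and -0.39 without _s_at and _x_at probe sets. Causes were not tested. No paired analysis was possible because each culture has 1 array. Without replicates, no value here can be separated from array-to-array variation, and signals under the floor were not ranked.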

Other observations

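A pair of probe sets annotated with a member and a second gene entered no comparison. The one shared by IFITM1 and IFITM2 read 429 on the monolayer array and 1411 on the spheroid array, 3.29-fold higher. The one shared by IRF9 and RNF31, a subunit of the linear ubiquitin ligase, had signals of 295 and 235, a ratio of 0.797.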
